A study of Homo sapiens with 24 samples.

Results

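The MLL4 peaks of UMUC1 cells that carried mutant UTX (HEAA) were compared with those of the same cells carrying an empty vector (EV). UMUC1 is an established human bladder cancer cell line. Members were every peak of the HEAA and EV MLL4 lists, 1125 and 133 peaks, out of 2156 MLL4 peaks in all 3 lines of the study. Where peaks of both lists shared at least 1 bp they were merged, which gave 1153 sites, named here by their position on the hg19 build. The HEAA cells stably expressed UTX with the substitutions H1146A and E1148A from a pSIN-puro construct, the wild-type cells (WT) expressed unchanged UTX from the same construct, and the EV cells held pSIN-puro with no insert. The vector was thus common to all lines, and the labels do not say whether a line is a pool or 1 clone. All were grown in serum-containing medium and harvested 3 days after plating. The question was where MLL4 was detected with and without the mutant protein, and what chromatin those places had in the EV cells.

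MLL4, the product of KMT2D, is a methyltransferase that places H3K4me1, the histone mark of enhancers, and it works in a complex that contains UTX. UTX, the product of KDM6A, removes methyl groups from H3K27, and the mutated residues lie in its catalytic domain. H3K27ac marks active enhancers and promoters, and H3K27me3 marks genes silenced by Polycomb. Both KMT2D and KDM6A are frequently mutated in bladder cancer.

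Chromatin immunoprecipitation sequencing was deposited as peak lists, with 1 list per line for MLL4, UTX, H3K4me1 and H3K27me3 and 2 numbered libraries for H3K27ac. Peak names in the UTX lists contain the word merged, and those in the MLL4 lists name a merged input; no label says what was merged. Read depth is unknown. Counts and shares below therefore describe these lists, with no replicate error for MLL4. Their 95% Wilson intervals cover counting error only. A site without a peak lay below the peak caller's threshold and is not one shown to lack the protein. The 3 MLL4 lists used here held no peak on chromosomes 20, 21 or 22, where the HEAA UTX list held 248 of its 2855 peaks (8.69%). Shares of UTX peaks below therefore use the 2606 HEAA UTX peaks on chromosomes that have MLL4 peaks.

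MLL4 peaks were far more numerous with mutant UTX, and the few peaks of EV cells were mostly in the HEAA list as well. The HEAA list covered 262 kb and the EV list 29.7 kb, a ratio of 8.82 in bases and 8.46 in number. Of the 1153 sites, 1021 were called in HEAA alone (88.6%, interval 86.6% to 90.3%). Another 103 were called in both lists (8.93%, 7.42% to 10.7%), and 29 in EV alone (2.52%, 1.76% to 3.59%). These are called HEAA-only, shared and EV-only sites. Of the 1125 HEAA peaks, 104 overlapped an EV peak (9.24%), and of the 133 EV peaks 104 overlapped a HEAA peak (78.2%). The excess remained without the weak end of the lists: at a −log10 q of at least 5 there were 872 HEAA and 114 EV peaks, a ratio of 7.65. It was smaller at higher cuts, with 257 and 39 peaks at 10, 82 and 12 at 15, and 21 and 7 at 20. Read depth is unknown, so the same cut may not mean the same in both lists.

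Strong HEAA peaks were found in other lists more often than weak ones. When HEAA peaks were ordered by q value into 10 equal groups, 33 of the 112 in the strongest group had an EV peak (29.5%, interval 21.8% to 38.5%), against 1.77% of the weakest group. A WT MLL4 peak was present at 84.8% of the strongest group and 15.9% of the weakest, and a HEAA UTX peak at 85.7% and 54.9%. With the full lists, the share with a UTX peak fell less steeply than the share with an MLL4 peak in another line. These lists differ in length, with 2855 UTX, 898 WT MLL4 and 133 EV MLL4 peaks. With the UTX list cut to its 1125 strongest peaks, its fall at HEAA-only peaks was no longer less steep than that of WT MLL4. Over 3 groups of HEAA peaks by q value, UTX then lay at 61.7% of HEAA-only peaks in the strongest and 22.3% in the weakest. WT MLL4 lay at 57.2% and 23.5%. The EV chromatin state showed no such gradient over the 10 groups. An H3K27ac region in both EV libraries lay at 83.9% of the strongest and 85.0% of the weakest group. EV H3K4me1 lay at 64.3% and 69.0%. With the EV list in 4 groups by q value, 87.9% of the strongest group and 61.8% of the weakest overlapped a HEAA peak.

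**Figure D1:**
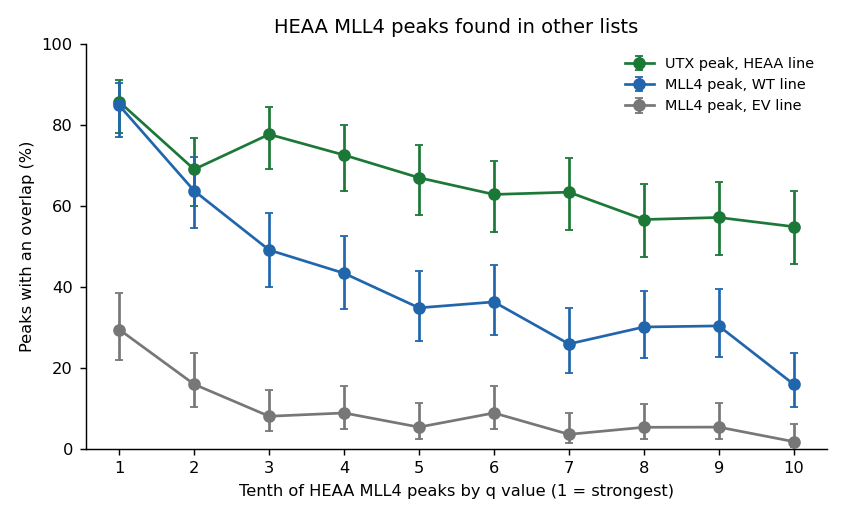
HEAA MLL4 peaks in 10 groups by q value (x axis, 1 = strongest, 112 or 113 peaks each), with the percent that overlap a HEAA UTX peak, a WT MLL4 peak or an EV MLL4 peak (y axis; bars are 95% Wilson intervals). In the weakest group, overlap is 15.9% with the WT MLL4 list of 898 peaks and 54.9% with the longer HEAA UTX list of 2855 peaks.

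The lists were also compared at equal length. When the 133 strongest HEAA peaks were set against the 133 EV peaks, 39 were shared (29.3%, interval 22.3% to 37.6%), 94 were in HEAA alone and 93 sites were in EV alone. With the other lists cut to their 133 strongest peaks as well, 41.4% of these HEAA peaks had a WT MLL4 peak (33.3% to 49.9%) and 30.1% a HEAA UTX peak (22.9% to 38.3%), shares whose intervals overlap that for EV. With the full lists of 898 and 2855 peaks the shares were 83.5% and 85.0%. Most of the strongest HEAA MLL4 peaks thus had no EV peak. Lists this short overlapped little in each of these comparisons, and a missing EV call does not show a different place. In the full lists, 78.2% of the EV peaks overlapped a HEAA peak.

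Fold enrichment is the peak caller's ratio of signal over background, and its medians were compared within each list only. In the HEAA list its median was 6.40 at HEAA-only sites (quartiles 5.50 and 7.38) and 7.15 at shared sites (5.86 and 8.89). In the EV list it was 7.16 at shared sites (6.10 and 8.33) and 6.78 at EV-only sites (6.17 and 7.48). Within either list the ranges of the classes overlapped widely. Peaks were wider at shared sites: a median of 248 bp against 205 bp at HEAA-only sites in the HEAA list, and 174.5 bp against 163 bp at EV-only sites in the EV list. Across the 103 shared sites Spearman's rho between HEAA and EV fold was 0.27, and between HEAA and WT fold it was 0.60 at the 89 also called in WT. The first rests on 9 sites of low fold described below: without them it was 0.04 over 94 sites, so that the order of strength was hardly kept, and the second was 0.44 over 80. Those coefficients run over sites of single libraries and are descriptions. The weakest HEAA peak by q value, on chromosome 16 from 84390077 to 84390269, had a fold of 3.34 at a −log10 q of 1.62, and the weakest EV peak by q value, on chromosome 15 from 89939341 to 89939506, a fold of 4.55 at 2.04.

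A small block of shared sites stood apart. At 9 of the 103, on 4 chromosomes, fold lay between 1.73 and 2.13 in the HEAA list and between 2.05 and 2.68 in the EV list, under a fold of 3, with no other site of either list in that range. They were strongly called all the same, with a −log10 q of 4.29 to 17.8 in HEAA and 6.35 to 30.5 in EV, and they supplied 4 of the 7 EV peaks with a −log10 q of 20 or more. They lay at chr1:121484419-121485453, in 3 pieces at chr6:58776456-58779320, in 2 at chr7:61968794-61970455 and in 3 at chr16:46391879-46403812. All 9 were in the WT MLL4 list as well. None had a UTX peak in HEAA or WT, an H3K27ac region in any EV or HEAA library, or H3K4me1 in EV or HEAA. Whether these places are satellite repeats or other regions prone to spurious peaks was not checked, for want of an hg19 annotation, and their peaks may not be MLL4 binding. These 9 sites were set apart after their values were seen, and results on shared sites are given below without them where they matter.

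**Figure D2:**
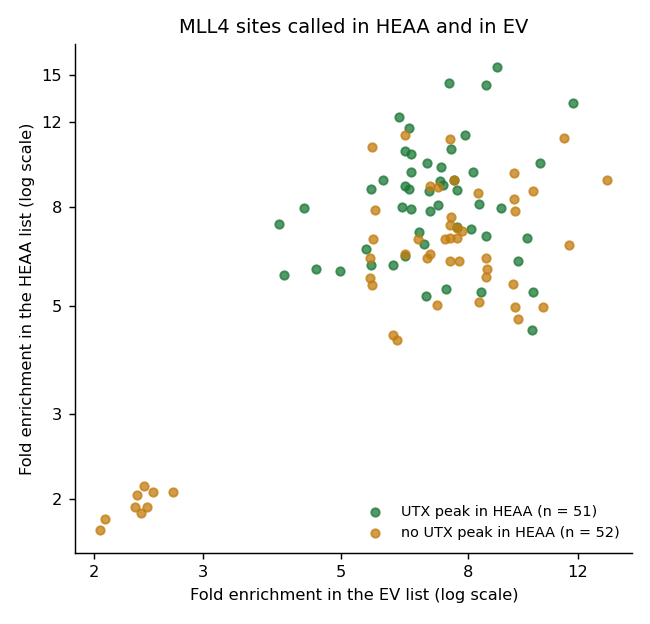
Fold enrichment of the 103 shared MLL4 sites in the HEAA list (y axis, log scale) and in the EV list (x axis, log scale), 1 point per site, green with a HEAA UTX peak (n = 51) and orange without (n = 52). The 9 sites with a fold of 2.68 or less in both lists form a separate block at the lower left, all without a UTX peak.

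With the full UTX list, a mutant UTX peak lay at most of the places where MLL4 was called only in HEAA. A HEAA UTX peak overlapped 699 of 1021 HEAA-only sites (68.5%, interval 65.5% to 71.2%), 51 of 103 shared sites (49.5%, 40.1% to 59.0%) and 12 of 29 EV-only sites (41.4%, 25.5% to 59.3%). Without the 9 low-fold sites the shared value was 54.3%. With HEAA peaks in 3 groups by q value, UTX was present at 80.5% of HEAA-only and 59.7% of shared peaks in the strongest group, 68.0% and 40.0% in the middle group and 58.4% and 23.5% in the weakest. These shares depend on the length of the UTX list. With that list cut to its 1125 strongest peaks, the length of the HEAA MLL4 list, UTX lay at 42.0% of HEAA-only sites (interval 39.0% to 45.1%), 46.6% of shared sites (37.3% to 56.2%) and 24.1% of EV-only sites (12.2% to 42.1%). The order of HEAA-only and shared sites was then turned round, with overlapping intervals. Within the 3 groups by q value the cut list gave 61.7% of HEAA-only and 56.5% of shared peaks in the strongest, 44.6% and 40.0% in the middle and 22.3% and 17.6% in the weakest, again with overlapping intervals. Whether UTX was more frequent at HEAA-only than at shared sites therefore cannot be told from these lists. The EV cells had a UTX peak at 4 HEAA-only, 2 shared and 0 EV-only sites, from a list of 31 peaks. The wild-type protein was found at largely the same places, with a WT UTX peak at 602 HEAA-only (59.0%), 50 shared (48.5%) and 10 EV-only sites (34.5%). Both UTX lists had a peak at 543 HEAA-only sites (53.2%), HEAA alone at 156, WT alone at 59, and neither at 263 (25.8%).

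Where MLL4 and UTX peaks overlapped, their summits lay close together. The sites were kept for that overlap, which by itself limits the distance between summits. At the 699 HEAA-only sites with UTX, the summits of the 2 proteins lay a median of 28 bp apart, and 631 pairs (90.3%) lay within 100 bp. The median was 34 bp at the 51 shared sites with UTX. For comparison, the HEAA and EV MLL4 summits of the 103 shared sites lay a median of 19 bp apart. Fold enrichment of MLL4 and of UTX in HEAA followed each other moderately over the 699 sites (rho 0.48, a description over sites of 2 libraries).

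UTX peaks at MLL4 sites of the HEAA list were stronger than those elsewhere, most so at shared sites. Of the 2606 HEAA UTX peaks, 696 lay at HEAA-only sites (26.7%), 51 at shared sites (1.96%), 12 at EV-only sites and 1847 at no MLL4 site of either list. The median UTX fold was 6.02 at HEAA-only, 7.79 at shared and 5.25 at EV-only sites, and 5.07 where there was no MLL4 site. With UTX peaks in 5 groups by q value, 51.2% of the strongest group had a HEAA-only MLL4 site and 8.06% a shared one. In the weakest group the shares were 13.4% and 0%, or 0 of 522 peaks.

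The HEAA-only sites were, for the most part, acetylated in EV cells. An H3K27ac region was called in both EV libraries at 829 of 1021 HEAA-only sites (81.2%, interval 78.7% to 83.5%), 77 of 103 shared sites (74.8%, 65.6% to 82.2%) and 17 of 29 EV-only sites (58.6%, 40.7% to 74.5%). These intervals overlap in part, and without the 9 low-fold sites the shared value was 81.9%. EV H3K4me1 separated the classes more: it overlapped 651 HEAA-only sites (63.8%, 60.8% to 66.7%), 43 shared sites (41.7%, 32.7% to 51.4%) and 14 EV-only sites (48.3%, 31.4% to 65.6%). Without the low-fold sites, 45.7% of shared sites had it. With H3K27ac counted only where both EV libraries called it, both marks were present at 52.3% of HEAA-only, 35.9% of shared and 27.6% of EV-only sites. By that rule neither was present at 7.35%, 19.4% and 20.7%, which include sites acetylated in a single EV library.

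HEAA UTX peaks with no MLL4 site of the HEAA or EV list, 1847 in number, give a yardstick for these shares. A WT MLL4 peak overlapped 209 of them (11.3%). The 1847 peaks had EV H3K27ac in both libraries at 75.6% and EV H3K4me1 at 72.2%. By direct overlap, HEAA-only MLL4 sites thus stood above them in acetylation and below them in H3K4me1. Within 1 kb, EV H3K4me1 was near almost all of both, at 98.7% of HEAA-only sites and 99.5% of these UTX peaks. No EV H3K27me3 region overlapped a HEAA-only site (0 of 1021, which allows a share of up to 0.294% by the limit of 3 counts) or an EV-only site (0 of 29, up to 10.3%), and 1 of the 103 shared sites, among the 9 of low fold, had one.

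**Figure D3:**
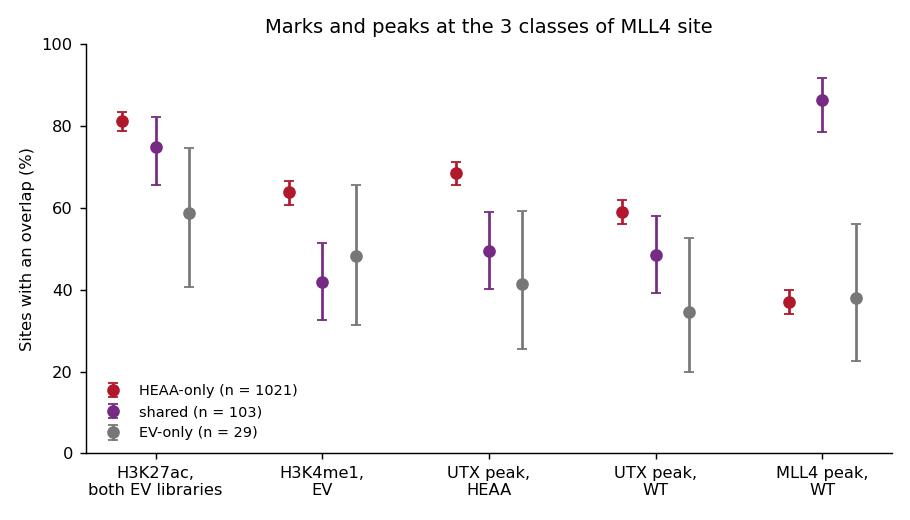
Percent of HEAA-only (n = 1021), shared (n = 103) and EV-only sites (n = 29) that overlap EV H3K27ac in both libraries, EV H3K4me1, a HEAA or WT UTX peak or a WT MLL4 peak (y axis; bars are 95% Wilson intervals). Shared sites have the lowest EV H3K4me1 share, 41.7%, and the highest WT MLL4 share, 86.4%.

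The acetylated regions that held MLL4 sites were wide. In EV library 1 the region around a HEAA-only site had a median width of 3.76 kb, against 1.01 kb over all regions, and in EV library 2 3.11 kb against 1.16 kb. The widest 10% of regions held 59.1% of acetylated HEAA-only sites in library 1 and 49.2% in library 2, 48.1% and 37.3% of shared sites, and 21.7% and 5.26% of EV-only sites. Wide regions hold more places for a site, since the widest 10% made up 34.5% and 32.1% of all acetylated bases. Acetylated UTX peaks without MLL4 were in the widest regions as often as HEAA-only sites, at 56.6% and 49.2%. Seen the other way, 886 of the 37032 regions called in both EV libraries on these chromosomes held a HEAA-only site (2.39%), 78 a shared site (0.211%) and 23 an EV-only site (0.0621%).

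Few MLL4 sites lay away from acetylated chromatin of EV cells. No H3K27ac region of either EV library came within 1 kb of 14 of 1021 HEAA-only sites (1.37%), 13 of 103 shared sites (12.6%) and 3 of 29 EV-only sites (10.3%). The 13 shared sites include the 9 of low fold. Of the 14 HEAA-only sites, none was acetylated in both HEAA libraries within that distance, 13 had EV H3K4me1 within 1 kb and 2 had a HEAA UTX peak.

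Shared sites were of 2 kinds when split by UTX. Those with a HEAA UTX peak (51) resembled HEAA-only sites: 90.2% had EV H3K27ac in both libraries, 68.6% had EV H3K4me1 and 9.80% had another MLL4 site within 10 kb. Those without UTX (52) had EV H3K27ac at 59.6% and EV H3K4me1 at 15.4%, and 57.7% had another MLL4 site within 10 kb. After the 9 low-fold sites were left out, the 43 remaining sites without UTX had values of 72.1%, 18.6% and 51.2%. These mark shares are by direct overlap, and within 1 kb the contrast was smaller. EV H3K4me1 then lay near 37 of the 52 sites without UTX (71.2%) and all 51 with UTX. EV H3K27ac in both libraries lay near 75.0% and 98.0%. The 9 low-fold sites, with neither mark within 1 kb in EV, are among the 52. Both kinds were in the WT MLL4 list, at 92.2% with UTX and 80.8% without, although 3.85% of those without a HEAA UTX peak had a WT UTX peak. The 80.8% includes the 9 low-fold sites, all of them in the WT list, and would be lower without them. Among HEAA-only sites the same split was shallow, with EV H3K27ac at 84.4% with UTX and 74.2% without, EV H3K4me1 at 64.8% and 61.5%, and a neighbour within 10 kb at 7.73% and 13.4%.

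Many of the shared sites without UTX lay in clusters of MLL4 sites. Joining sites no more than 100 kb apart gave 925 loci, of which 767 had 1 site and 42 had 3 or more, with 154 sites in all (13.4%). At 15 of the 42 no site had a HEAA UTX peak. Those 15 held 33 HEAA-only, 22 shared and 4 EV-only sites, with EV H3K4me1 at 20.3% and H3K27ac in both EV libraries at 49.2%. They include 6 of the low-fold sites, without which the shares were 22.6% and 54.7% of 53 sites. The other 27 loci held 76 HEAA-only, 15 shared and 4 EV-only sites, with EV H3K4me1 at 66.3% and H3K27ac at 87.4%. Low direct overlap with H3K4me1 was not limited to the clusters. An EV H3K4me1 region overlapped 2 of the 22 shared sites of the 15 loci (9.09%) and 6 of the other 30 shared sites without UTX (20.0%, interval 9.51% to 37.3%). EV H3K27ac was present at 40.9% and 73.3% of these.

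Single clusters, chosen for their number of sites after the values were seen, show the contrast. Genes, repeats and RNA polymerase III transcription units at these places were not checked, since no hg19 annotation was used here. At chr6:28863982-28949548 there were 7 sites, 6 HEAA-only and 1 EV-only, without a UTX peak or an EV H3K4me1 region at any of them. At chr16:85387544-85558405 there were also 7, 3 HEAA-only, 2 shared and 2 EV-only, with UTX at 4 and EV H3K4me1 at all 7. The cluster at chr1:161391808-161510215 had 6 sites, none with UTX and 1 with EV H3K4me1. At chr11:59317972-59333982, within 16.0 kb, 5 sites lay close together, 1 HEAA-only and 4 shared, none with UTX and 4 with WT MLL4. All 5 sites at chr15:58684877-58814170 were HEAA-only, and 4 of them had a HEAA UTX peak.

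H3K4me1 directly over the MLL4 sites was called less often in HEAA than in EV, mainly where UTX was present. With 1 library a line, the difference between sites with and without UTX was not tested. At HEAA-only sites with a HEAA UTX peak, H3K4me1 overlapped 371 of 699 in HEAA (53.1%) and 453 in EV (64.8%), a difference of −11.7 points. It was called in HEAA and not in EV at 52 of these sites, and in EV and not in HEAA at 134, which is 29.6% of the 453 (interval 25.6% to 33.9%). At HEAA-only sites without UTX it overlapped 195 of 322 in HEAA (60.6%) and 198 in EV (61.5%), a difference of −0.93 points. There, 23 of the 198 EV-marked sites had no HEAA region (11.6%, 7.87% to 16.8%). As background, 20.9% of EV-marked UTX peaks without MLL4 and 16.2% of all EV H3K4me1 regions had no HEAA region.

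At shared sites the difference was −11.8 points where UTX was present (29 sites in HEAA, 35 in EV) and −1.92 points where it was absent (7 in HEAA, 8 in EV). Counted as EV-marked sites with no HEAA region, it was 9 of 35 with UTX (25.7%, 14.2% to 42.1%) and 4 of 8 without (50.0%, 21.5% to 78.5%), so that the split by UTX is not clear for shared sites. At EV-only sites the same 14 of 29 were marked in HEAA and in EV. The WT H3K4me1 list, a library that took no part in the comparison of HEAA with EV but shares the EV list as its base, gave −12.9 points at HEAA-only sites with UTX and −4.66 points at those without. At HEAA UTX peaks without a HEAA or EV MLL4 site, some of which had a WT MLL4 peak, the WT list gave −8.88 points. Of all EV H3K4me1 regions, 18.9% had no WT region. Of the 134 EV-marked sites with no HEAA region, 81 had no WT region either. Such sites were also frequent elsewhere, at 13 of 23 for HEAA-only sites without UTX. For UTX peaks without MLL4 they were 145 of 278. All 3 libraries are single, so the spread between libraries of a line is unknown, and the HEAA H3K4me1 list was the longer one, with 186 Mb in HEAA and 157 Mb in EV.

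The difference was narrow in space. At the midpoint of HEAA-only sites with UTX, 39.8% lay inside an H3K4me1 region in HEAA and 51.4% in EV. At 0.5 kb from the midpoint the values were 93.3% in HEAA and 94.3% in EV. Within 1 kb, H3K4me1 was found at every one of the 699 sites in both lines. The mark was thus called beside these sites in both lines, with a gap over the site that was more frequent in HEAA. At HEAA-only sites without UTX the midpoint values were 56.5% in HEAA and 56.5% in EV, and at shared sites with UTX 41.2% in HEAA and 43.1% in EV.

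**Figure D4:**
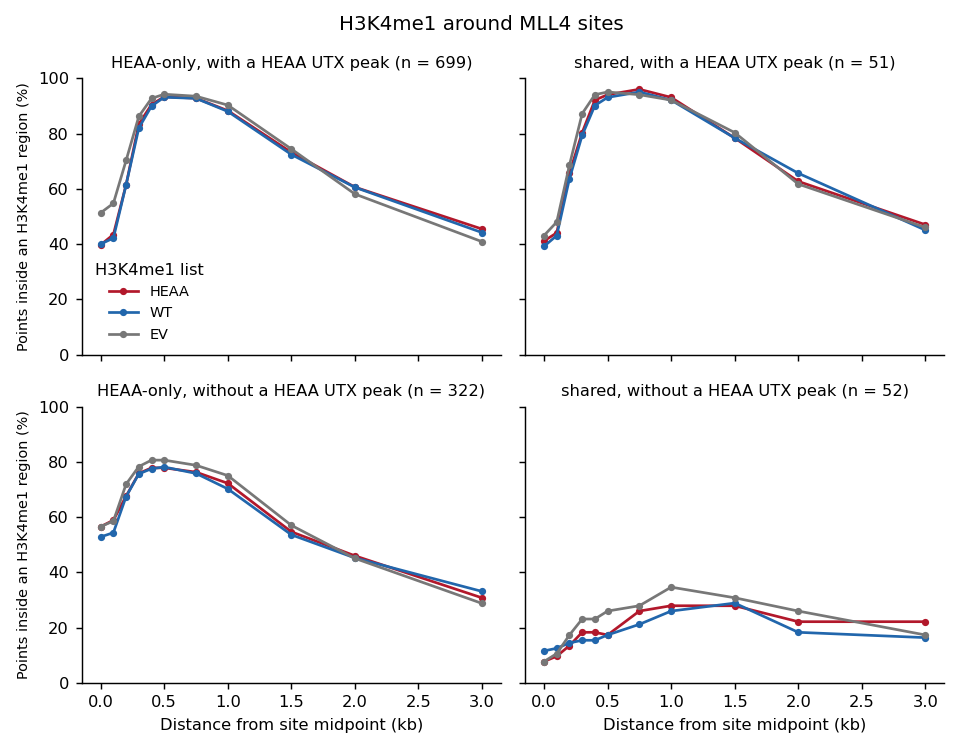
Percent of points inside an H3K4me1 region (y axis) at increasing distance from the site midpoint (x axis, kb, both sides averaged), from the HEAA, WT and EV lists, for HEAA-only (left) and shared sites (right) with a HEAA UTX peak (top) and without (bottom). At HEAA-only sites with UTX the HEAA line starts at 39.8% and the EV line at 51.4%, and at 0.5 kb they stand at 93.3% and 94.3%.

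H3K27ac at the sites was not distinguishable between HEAA and EV cells. At HEAA-only sites it was called at 94.2% and 68.9% in the 2 HEAA libraries and at 90.8% and 84.8% in the 2 EV libraries. The HEAA libraries lay above and below both EV libraries, and the difference of means was −6.27 points (81.5% ± 17.9 in HEAA, 87.8% ± 4.22 in EV, SD, n = 2 each, exact two-sided permutation test p = 1, where the smallest p possible is 0.33). Within library numbers it was +3.43 points for number 1 and −16.0 points for number 2. At shared sites the values were 83.5% and 68.0% in HEAA and 78.6% and 80.6% in EV, a difference of −3.88 points (exact permutation p = 1). At EV-only sites they were 79.3% and 41.4% in HEAA and 79.3% and 65.5% in EV (−12.1 points, exact permutation p = 1). HEAA library 2 had the shortest list, 48.3 Mb against 111 Mb for HEAA library 1, and EV lists of 88.1 and 71.7 Mb. Its part in the differences was not tested. The labels do not say whether the numbered libraries came from separate cultures.

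Calls of acetylation left little room for a gain at HEAA-only sites. Of the 1021 HEAA-only sites, 674 were acetylated in all 4 libraries (66.0%) and 38 in none. No EV library had a region at 57 sites, and of these 1 was called in both HEAA libraries, 18 in 1 HEAA library and 38 in none. The opposite pattern, both EV libraries and no HEAA library, was seen at 4 sites. A change in the level of acetylation within called regions cannot be read from these lists.

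The HEAA-only sites with the highest fold enrichment all carried UTX. The first, at chr12:123555174-123555502, had an MLL4 fold of 18.3 in HEAA, with a HEAA UTX fold of 13.3 and H3K27ac and H3K4me1 in HEAA and EV. Next came chr12:110302732-110303080 (16.5), whose EV H3K4me1 had no counterpart in HEAA, chr11:119777914-119778173 (13.8) and chr2:241309562-241309869 (13.8). At chr19:12894606-12894902 (13.3) H3K27ac was called in all 4 libraries and H3K4me1 in neither line. The other 10 had folds between 11.3 and 12.6. All 15 had a UTX peak in both HEAA and WT, 13 had a WT MLL4 peak, and 14 had H3K27ac in both EV libraries. H3K4me1 was called at 11 of the 15 in HEAA and at 14 in EV.

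The named HEAA-only sites without a WT MLL4 peak were at chr7:32720257-32720581 (11.7) and chr16:85678914-85679160 (11.3). At chr14:65433787-65434032 (12.3) H3K27ac was called in library 1 of each line and in library 2 of neither.

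Of the 10 shared sites with the best mean rank over both lists, 7 had a HEAA UTX peak, the same number a WT UTX peak and all 10 a WT MLL4 peak. The site at chr2:129062684-129063157 had folds of 13.2 in the HEAA list and 11.8 in the EV list, and H3K27ac and H3K4me1 in both lines. At chr11:738047-738349 the folds were 15.6 in HEAA and 8.88 in EV, at chr15:92684132-92684362 14.3 and 8.54, and at chr9:114932548-114932873 14.4 and 7.44. These 3 ranked among the top 5 peaks of the HEAA list and from 22 to 54 in the EV list. The 3 without UTX, at chr1:145398840-145399517 (11.1 in HEAA, 11.4 in EV), chr2:27273593-27273842 (11.1 and 7.47) and chr14:50328726-50329311 (9.12 and 13.4), each had another MLL4 site within 10 kb and H3K27ac without H3K4me1 in EV. The last was the top peak of the EV list and ranked 88 in HEAA.

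The named EV-only sites were mixed in their chromatin. The strongest, at chr1:16872394-16872579 (EV fold 12.3), ranked 2 in the EV list and had no histone region of EV or HEAA, no UTX peak and no WT MLL4 peak. The next, at chr3:169489929-169490107 (9.97) and chr17:40540718-40540873 (9.49), had H3K27ac in all 4 libraries, no H3K4me1 and a WT MLL4 peak. At chr6:27655949-27656091 (8.02) there was a WT MLL4 peak and no mark. The other 6 named sites had EV folds of 7.30 to 8.66, and 5 of these had a UTX peak in HEAA and in WT. Among all 29, 5 had a HEAA MLL4 peak within 1 kb without touching it, the closest 165 bp away, and 12 within 100 kb, with a median distance of 202 kb to the nearest.

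The WT list, which did not define the classes, held 89 of the 103 shared sites (86.4%, interval 78.5% to 91.7%), 377 HEAA-only sites (36.9%, 34.0% to 39.9%) and 11 of the 29 EV-only sites (37.9%, 22.7% to 56.0%). HEAA-only sites also called in WT had a higher median fold in HEAA, 6.91 against 6.19, and more often a HEAA UTX peak, at 79.8% against 61.8%. They had EV H3K4me1 less often, at 57.6% against 67.4%. Combining both criteria, 301 HEAA-only sites had UTX and WT MLL4 (29.5%), 398 had UTX alone (39.0%), 76 had WT MLL4 alone (7.44%) and 246 had neither (24.1%). The 246 were the weakest, with a median fold of 5.91 against 6.93 at the 301, and they had EV H3K27ac in both libraries at 73.2%, the lowest share of the 4 sets, and EV H3K4me1 at 68.3%, the highest. The 76 with WT MLL4 alone had the lowest EV H3K4me1 share of the 4 sets, 39.5%.

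HEAA and EV peaks were counted by chromosome. The chromosomes named here were picked after their counts were seen, which favours a contrast. Whether the lists were spread differently over chromosomes was not tested. Chromosome 3 had 88 HEAA peaks and 3 EV peaks, chromosome 10 had 42 and 1, and chromosome 13 had 30 and 1. Chromosomes 16 and 17, which had the most EV peaks after chromosome 1, together held 133 HEAA peaks (11.8% of the list, interval 10.1% to 13.8%) and 29 EV peaks (21.8%, 15.6% to 29.6%). Their choice by EV count raises the EV share, which the intervals do not allow for. Chromosome 16 also holds 3 of the low-fold sites. Chromosome X had 12 HEAA peaks and no EV peak.

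**Figure D5:**
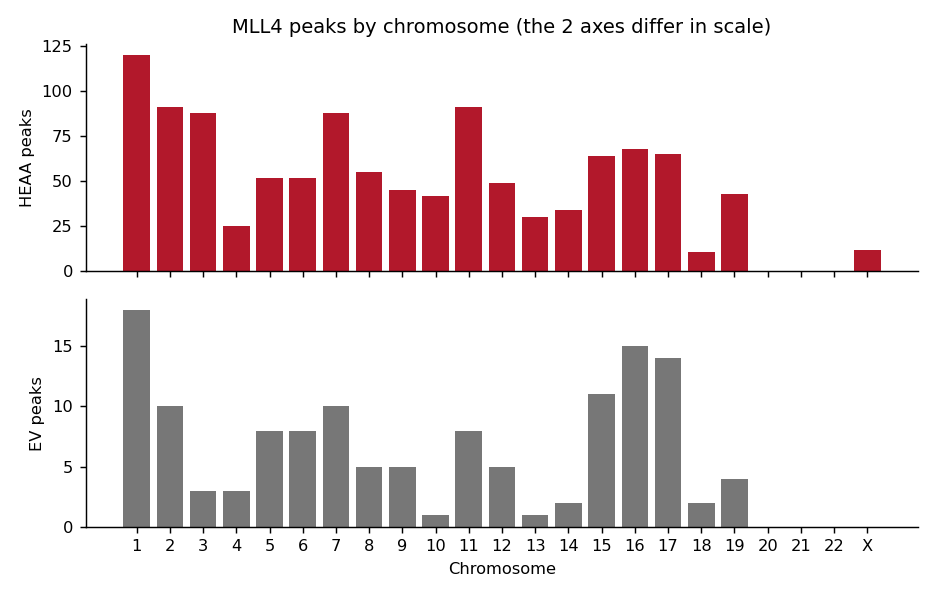
Number of MLL4 peaks on each chromosome in HEAA (top) and EV (bottom), on y axes of different scale, each starting at 0. Chromosomes 16 and 17, picked for their number of EV peaks, hold 11.8% of the HEAA and 21.8% of the EV peaks. Chromosomes 20, 21 and 22 hold none in either list.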

How the data were processed

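Peak lists of 18 samples in 3 UMUC1 lines were used; 6 input samples had no list. Per the labels' protocols, the UTX and MLL4 samples were cut with micrococcal nuclease before sonication, and the histone samples were sonicated. MACS2 and the builds hg19 and GRCh37 are named in the submitters' processing notes. For versions, aligner and filters, nothing is given in the sources used here. The deposited fold enrichment of a peak is a linear ratio, and the deposited −log10 p-value and q-value are those of the authors' peak caller. The deposited score was not used. Medians of fold and q were compared only within a list. Across lists, fold served for rank correlations, mean ranks and the cut at a fold of 3, and the same q cuts were applied to several lists. Folds of 2 lists printed side by side at a site are not on a common scale. The read depth is unknown, and lists lengthen with depth.

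Overlaps (at least 1 bp) and 95% Wilson intervals were computed in Python 3.11.15 with NumPy 2.4.6, pandas 2.3.3 and SciPy 1.17.1; matplotlib 3.10.9 drew the figures. On simulated lists, 600 of 600 planted shared peaks were recovered. H3K27ac shares were compared over libraries by exact permutation, whose p-values measure only the spread between libraries, which may be technical. Sites named were the 15 HEAA-only and 10 EV-only sites of highest fold and the 10 shared sites of best mean rank of fold. Members, lists and tests were chosen with earlier results of these data known; clusters, chromosomes, low-fold sites and weakest peaks were named after their values were seen. An hg19 sequence or annotation was not used here, so the planned comparisons of genes, cell markers and motifs were not run. Alternatives covered q thresholds, overlap rules, list length, neighbouring sites, low-fold sites and replicates.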

Additional observations from a re-analysis of the deposited data

How the results depend on the processing

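Of 144 alternative values, 112 were classed as the same as the reported value, 30 as moved and 2 changed sign. That class did not hold differences to a like size. The H3K4me1 difference at HEAA-only sites, HEAA minus EV, was −8.33 points and, within 1 kb, −0.59 points. At shared sites it was −6.80 points and, by regions covering the midpoint, −0.97 points. The H3K27ac difference at EV-only sites was −12.1 points and, without replicate 2, 0 points. All 3 of these changes were classed as the same. With the HEAA list cut to the length of the EV list, the counts were 94 HEAA-only, 39 shared and 93 EV-only sites. Counting regions within 1 kb gave H3K27ac in both EV libraries at 95.6% of HEAA-only and 86.4% of shared sites, and EV H3K4me1 at 98.7% and 85.4%. Histone regions with a −log10 q of at least 5 gave 74.8% and 56.2% at HEAA-only sites. HEAA UTX was at 61.7% of HEAA-only sites with that threshold on UTX peaks and at 42.0% with the UTX list cut to the length of the MLL4 list, where the shared value was 46.6% and so above it. Left without 1 replicate, EV H3K27ac at HEAA-only sites ranged from 84.8% to 90.8%. Without sites within 10 kb of another, chosen after seeing the data, 68 shared sites were left, with EV H3K27ac at 82.4%, EV H3K4me1 at 54.4% and HEAA UTX at 67.6%. The H3K27ac difference, HEAA minus EV, changed sign without replicate 2, to 3.43 points at HEAA-only and 4.85 points at shared sites, and ranged down to −16.0 and −12.6 points without replicate 1. With the replicate number as a block, the differences were −6.27, −3.88 and −12.1 points at HEAA-only, shared and EV-only sites, each with exact permutation p = 1; the deviations of same-numbered libraries correlated at 0.309, −0.0594 and 0.348, which with 2 libraries a line does not settle whether the numbers pair them. The cause of these shifts was not tested. Depth, which is unknown, limits every count of sites called in 1 line alone.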
